A study of Mus musculus with 26 samples.

Results

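Immunoglobulin variable segments were measured in liver RNA of mice kept on a high-fat diet. They were chosen by name and by read count: a segment was kept where its symbol began with Ighv (heavy chain), Igkv (kappa light chain) or Iglv (lambda light chain) and its counts came to 10 or more over the 17 libraries. This left 130 of the 348 variable segments in the table, with 61 Ighv, 66 Igkv and 3 Iglv segments, out of 55401 genes in all. The limit fell on the sum over both groups, so it used the same reads that are described below. It did not use the difference between the groups, but a segment could meet it through either group's reads alone. The segments Ighv1-59, Ighv1-61 and Ighv3-8 lay just inside it with 10 reads each, and Ighv1-20, Ighv1-4 and Ighv1-42 just outside with 9 reads each.

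The mice were male C57BL/6 animals put on the diet at 4 weeks of age and fed it for 18 weeks, and both groups share this background. The series' design text adds that the diet was also high in cholesterol. In the UCMSC-Exos group (8 libraries), exosomes of UCMSC origin, which are small vesicles shed by cells, were injected into the tail vein every 72 hours for 8 weeks. The untreated HFD group (9 libraries) had the diet with no listed injection, so exosomes, repeated injection and any cage or cohort shared by a group cannot be told apart. The 9 LSCR samples were not analysed here. Each library held 32.9 to 36.1 M counted reads. The 7 hepatocyte markers together held 37353 to 70859 CPM (counts scaled to the effective library size) in UCMSC-Exos livers and 31564 to 51569 CPM in untreated HFD livers. Transcripts of pancreatic acinar cells summed to 12118 CPM in untreated HFD 3, and those of skeletal muscle to 7942 CPM in untreated HFD 9.

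Each B cell joins 1 variable segment to short joining pieces, and in heavy chains also to a diversity piece, to build the part of an antibody that meets antigen. After antigen contact, clones that carry a given segment can grow and become plasma cells, which make very large amounts of immunoglobulin mRNA. Reads over variable segments in a whole tissue therefore show which segments the antibody-making cells there use, weighted by how much mRNA each cell holds. In bulk RNA, fewer cells and less RNA per cell cannot be told apart. The counts name the segment but not the joined rearrangement, so a segment shared by mice is not by itself a shared clone.

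The germline sequences of 6 segments are given because the results turn on them. Ighv9-3, Igkv15-103 and Igkv4-50 took the largest shares in UCMSC-Exos livers, and Ighv9-2 is the segment of the family closest to Ighv9-3 in sequence. Ighv1-50 and Igkv1-110 had the largest mean shares in untreated HFD livers. Each line shows the last 300 bases of the spliced transcript, 5′ to 3′ on the coding strand, from GENCODE vM21 on GRCm38 (mm10), whose coordinates for the segments match those in the counts. In the Ighv9-3 and Ighv9-2 lines capitals mark the 15 bases at which they differ. In the other lines capitals run from the codon of the conserved cysteine, just before the third complementarity-determining region, to the end of the segment.
Ighv9-3: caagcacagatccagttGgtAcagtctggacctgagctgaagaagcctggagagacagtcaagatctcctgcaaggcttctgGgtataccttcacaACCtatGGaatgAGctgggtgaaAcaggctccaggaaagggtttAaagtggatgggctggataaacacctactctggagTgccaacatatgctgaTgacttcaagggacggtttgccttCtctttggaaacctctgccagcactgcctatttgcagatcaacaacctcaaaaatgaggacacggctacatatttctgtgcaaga
Ighv9-2: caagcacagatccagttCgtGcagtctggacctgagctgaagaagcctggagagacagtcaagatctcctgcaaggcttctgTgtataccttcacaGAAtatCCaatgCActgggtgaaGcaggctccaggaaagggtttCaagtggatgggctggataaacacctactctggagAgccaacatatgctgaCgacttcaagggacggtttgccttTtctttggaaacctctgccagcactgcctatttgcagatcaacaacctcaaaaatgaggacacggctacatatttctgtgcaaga
Igkv15-103: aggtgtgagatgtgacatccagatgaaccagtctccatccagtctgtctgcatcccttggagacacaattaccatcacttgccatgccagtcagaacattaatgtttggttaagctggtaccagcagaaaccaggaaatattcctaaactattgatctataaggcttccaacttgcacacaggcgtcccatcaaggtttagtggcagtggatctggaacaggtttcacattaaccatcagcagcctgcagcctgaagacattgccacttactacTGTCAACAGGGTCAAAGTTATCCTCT
Igkv4-50: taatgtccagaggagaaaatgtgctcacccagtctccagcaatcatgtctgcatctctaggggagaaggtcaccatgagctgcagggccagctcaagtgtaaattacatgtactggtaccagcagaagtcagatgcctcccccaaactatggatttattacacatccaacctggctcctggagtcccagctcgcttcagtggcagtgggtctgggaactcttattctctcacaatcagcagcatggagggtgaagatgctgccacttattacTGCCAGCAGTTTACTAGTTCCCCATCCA
Ighv1-50: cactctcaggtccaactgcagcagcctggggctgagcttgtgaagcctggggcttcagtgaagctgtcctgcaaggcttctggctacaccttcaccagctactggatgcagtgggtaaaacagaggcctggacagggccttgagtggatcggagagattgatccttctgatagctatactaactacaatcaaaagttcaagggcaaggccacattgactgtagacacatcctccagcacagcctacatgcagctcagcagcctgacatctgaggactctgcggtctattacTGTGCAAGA
Igkv1-110: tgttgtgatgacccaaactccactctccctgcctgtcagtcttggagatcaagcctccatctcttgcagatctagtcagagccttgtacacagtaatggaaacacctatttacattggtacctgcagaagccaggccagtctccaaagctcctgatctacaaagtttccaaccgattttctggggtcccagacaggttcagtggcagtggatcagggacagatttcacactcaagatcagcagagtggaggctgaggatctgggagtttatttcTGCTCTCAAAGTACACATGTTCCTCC

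All 6 are annotated as functional segments of type IG_V_gene with 2 exons. Ighv9-3 lies at chr12:114140692-114141122 on the minus strand, Ighv9-2 at chr12:114109001-114109430 (minus) and Ighv1-50 at chr12:115119748-115120219 (minus), all in the heavy chain locus. Igkv15-103 lies at chr6:68437440-68437925 (plus), Igkv4-50 at chr6:69700767-69701287 (minus) and Igkv1-110 at chr6:68270485-68271267 (plus), in the kappa locus. Ighv9-3 and Ighv9-2 were identical at 95% of the bases shown. No 100-base window of Ighv9-3, Ighv9-2, Igkv15-103 or Igkv4-50 occurred in any other variable segment. The windows found in no other segment were 86.9% of all windows in Ighv1-50 and 83.8% in Igkv1-110, so their counts are less certain. Over the 130 segments, 82 had windows that were all unique, and the lowest share was 57.2%.

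Of the 348 segments, 139 had no read in any library and 79 had 1 to 9 reads. The 130 segments held 11773 reads and the 218 below the limit held 301, or 2.49% of all variable segment reads. All 130 carried the functional annotation, and none of the 130 segments annotated as pseudogenes reached the limit.

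Variable segment reads were several times more abundant in UCMSC-Exos livers. Summed over the 130 segments, the level ran from 20.5 to 52.3 CPM with a median of 39.7 CPM in UCMSC-Exos livers, against 2.67 to 7.77 CPM with a median of 5.59 CPM in untreated HFD livers. The groups did not overlap, and the lowest UCMSC-Exos library, number 6, still lay above the highest untreated library, number 8. The ratio of the group means (39.1 ± 12.2 CPM, SD, n = 8, over 5.29 ± 1.51 CPM, SD, n = 9) was 7.38, or 2.88 on the log2 scale. The ratio was 8.47 for Ighv, 7.21 for Igkv and 2.62 for Iglv. Without Ighv9-3, Igkv15-103 and Igkv4-50, the summed level averaged 22.4 ± 6.20 CPM in UCMSC-Exos livers and 5.15 ± 1.44 CPM in untreated HFD livers, a ratio of 4.34.

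**Figure D1:**
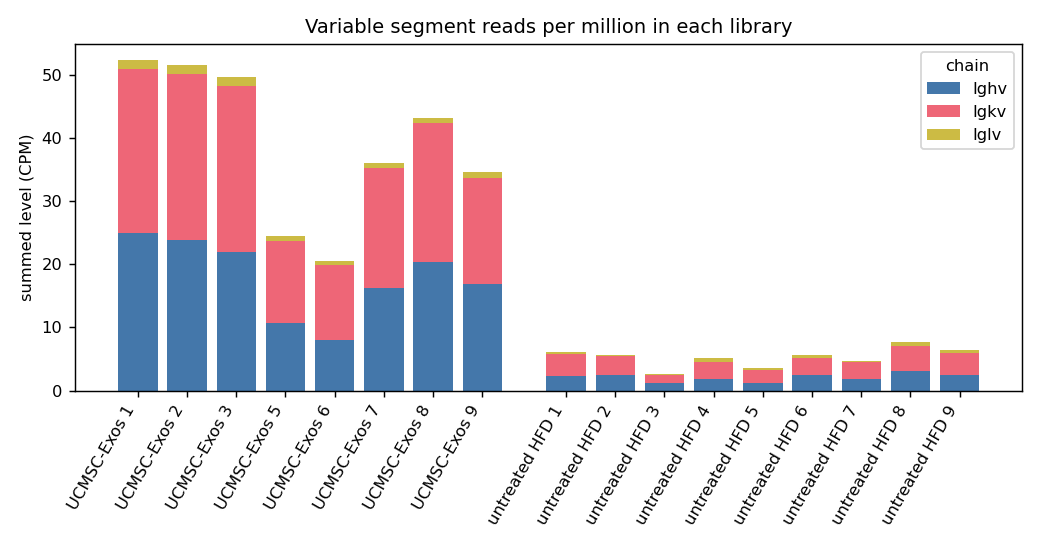
Summed level of the 130 variable segments in each library, in CPM, stacked by chain. The UCMSC-Exos bars reach 20.5 to 52.3 CPM and the untreated HFD bars 2.67 to 7.77 CPM, with little lambda in either.

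1 heavy chain segment, Ighv9-3, filled most of the heavy chain usage of every UCMSC-Exos library. Usage is the share of a chain's reads per kilobase that fell on a segment. Ighv9-3 had 133 to 500 reads with a median of 377.5 in UCMSC-Exos libraries, against 0 to 8 reads with a median of 4 in untreated HFD libraries. Its usage was 53.2% to 68.8% of the heavy chain in UCMSC-Exos livers and 0% to 9.41% in untreated HFD livers, and it was the leading segment in 8 of 8 libraries and in 1 of 9. The exact 95% interval for its share of Ighv reads was 48.2% to 55.7% in UCMSC-Exos 9, where the share was lowest, and 3.64% to 17.4% in untreated HFD 1, where it was highest among the untreated. In untreated HFD 3 and 7 it had no read, which allows up to 7.14% and 4.05% of the 42 and 74 Ighv reads there. The intervals and limits cover counting error only, and since both mates of a fragment are counted they are narrower than the number of fragments would give.

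On the CPM scale Ighv9-3 averaged 11.1 ± 4.42 CPM in UCMSC-Exos livers (SD, n = 8) and 0.105 ± 0.0865 CPM in untreated HFD livers (SD, n = 9). Its log2 fold change was 6.66 ± 0.45 (SE), with an adjusted p of 7.01e-08 in edgeR's quasi-likelihood test over 16238 genes. Its near neighbour in sequence, Ighv9-2, had 0 to 17 reads in UCMSC-Exos libraries, 60 in all, and none in any untreated HFD library. Pooled over each group, the UCMSC-Exos level of Ighv9-2 was 25.6 times the level that 3 reads in the untreated group would give. That ratio allows for counting error in the untreated reads only, with both mates counted, and leaves out the spread between mice. Ighv9-2 met the read limit through its UCMSC-Exos reads alone. Ighv9-2 held 0% to 4.37% of the reads of the Ighv9-2 and Ighv9-3 pair in UCMSC-Exos livers.

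Kappa usage was led by Igkv15-103 and Igkv4-50 in every UCMSC-Exos library. Igkv15-103 had 58 to 166 reads with a median of 109 in UCMSC-Exos libraries, against 0 to 2 reads with a median of 0 in untreated HFD libraries. It led 7 of the 8 UCMSC-Exos libraries and came second to Igkv4-50 in UCMSC-Exos 8. Igkv4-50 had 28 to 107 reads with a median of 73.5 in UCMSC-Exos libraries, and in the untreated group 4 reads in untreated HFD 1 and none in the other 8 libraries. As usage, Igkv15-103 took 16.4% ± 2.69 of the kappa chain in UCMSC-Exos livers and 0.87% ± 1.5 in untreated HFD livers, and Igkv4-50 took 11.4% ± 2.76 and 0.379% ± 1.14 (SD, n = 8 and 9). The log2 fold changes were 7.28 ± 0.47 for Igkv15-103 (edgeR adjusted p = 2.91e-08) and 7.15 ± 0.58 for Igkv4-50 (edgeR adjusted p = 6.18e-07). The Igkv4-50 value rests on the 4 untreated reads in untreated HFD 1, and without that library it was 9.28, fitted against no read at all.

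Together, Ighv9-3, Igkv15-103 and Igkv4-50 held 35.8% to 46.6% of all variable segment reads in UCMSC-Exos livers, with a median of 42.8%, against 0% to 6.02% with a median of 2.17% in untreated HFD livers. Per kilobase, Ighv9-3 had 2.45 to 4.37 times the reads of Igkv15-103 in the 8 UCMSC-Exos libraries, with a median of 3.42. Igkv15-103 had 0.991 to 2.65 times the reads of Igkv4-50, with a median of 1.28.

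**Figure D2:**
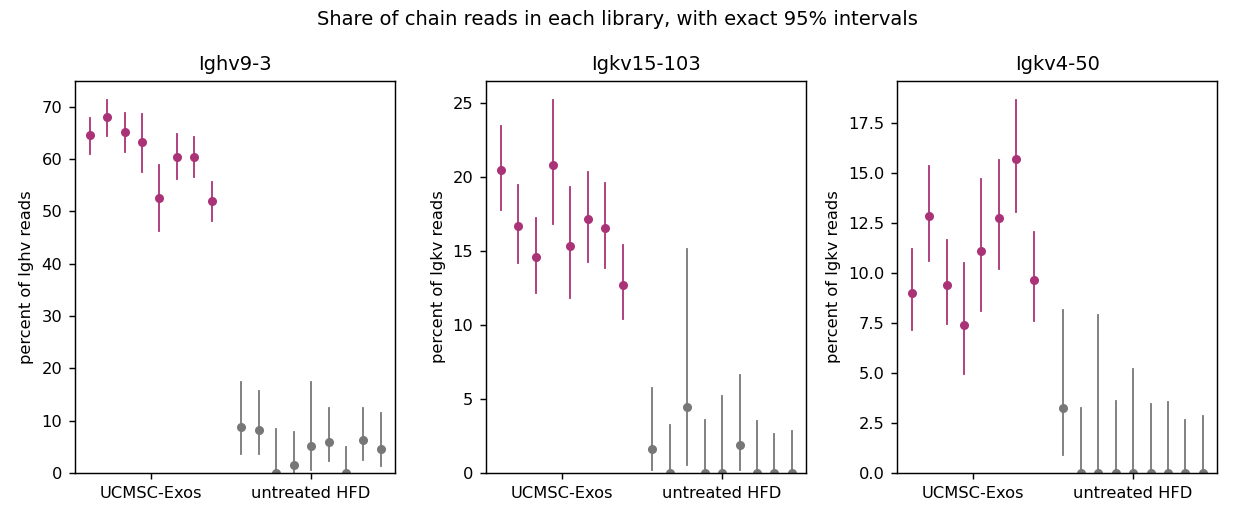
Share of a chain's reads that fell on Ighv9-3, Igkv15-103 and Igkv4-50, in percent, for each library, with points for the share and bars for the exact 95% interval. All UCMSC-Exos points lie above all untreated HFD points, and the wide untreated bars come from 39 to 138 reads per chain.

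Only 10 of the 130 segments had enough reads to pass edgeR's filter, and those 10 rose in UCMSC-Exos livers, where 9.73% of the 16238 genes tested were called higher. A segment near 0 in untreated livers passed the filter through its UCMSC-Exos counts alone, so that count of 10 of 10 is no measure of how all 130 behaved. In the same fit 20.2% of genes were called in either direction and 10.4% as lower, and the median log2 fold change over all tested genes was -0.02. With no filter, 44 of the 130 segments rose (14 Ighv, 29 Igkv and 1 Iglv) and 0 fell, where 3.89% of 31311 genes were called higher. 1 segment, Ighv1-66, was lower at an unadjusted p under 0.05 in that fit. The 31311 genes include any with a read, while the 130 had at least 10, so 3.89% is not a like background. Some of the 44, such as Ighv9-2 and Ighv5-12, met the read limit through UCMSC-Exos reads alone. The count of 44 is thus no measure of how variable segments behave in general. Without untreated HFD 3 and 9, whose other tissue transcripts are given above, 12 segments passed the filter and all 12 rose. The mean CPM was higher in UCMSC-Exos livers for 121 segments and lower for 9. The share of all genes with a higher mean was not computed. The read limit favoured segments high in UCMSC-Exos livers, which held 10022 of the 11773 reads. That split is therefore no measure of how variable segments behave in general. For 12 segments, 1 Ighv and 11 Igkv, every UCMSC-Exos value lay above every untreated value, as it did for 0.364% of the 24473 genes with 10 or more reads. No segment lay below in that sense, as 0.543% of those genes did.

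Among the other called kappa segments, Igkv4-91 averaged 0.94 ± 0.46 CPM in UCMSC-Exos livers and 0.0157 ± 0.0372 CPM in untreated HFD livers, a log2 fold change of 5.64 ± 0.62 (edgeR adjusted p = 1.34e-05). It had 10 to 44 reads in the UCMSC-Exos libraries, and in the untreated group 1 read in untreated HFD 5 and 4 in untreated HFD 9. Without untreated HFD 9 its log2 fold change was 7.06. Igkv6-17 averaged 0.672 ± 0.14 CPM in UCMSC-Exos livers and 0.04 ± 0.0469 CPM in untreated HFD livers, and rose by 3.97 ± 0.48 (edgeR adjusted p = 3.16e-05). The UCMSC-Exos CPM values of both lay above all untreated ones, but their usage ranges overlapped. Usage of Igkv4-91 was 2.01% to 7.02% in UCMSC-Exos livers and 0% to 3.25% in untreated HFD livers. Usage of Igkv6-17 was 2.22% to 4.91% and 0% to 3.19%.

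The other called kappa segments also rose in level, and their usage ranges overlapped between the groups as well. For Igkv10-96 and Igkv1-135, but not Igkv5-39 and Igkv3-4, every UCMSC-Exos CPM value lay above every untreated one. Igkv10-96 rose by 3.02 ± 0.51 in log2 units (edgeR adjusted p = 6.31e-04), with 3.60% ± 2.11 of usage in UCMSC-Exos livers and 2.63% ± 3.12 in untreated HFD livers. For Igkv1-135 the log2 fold change was 2.61 ± 0.36 (edgeR adjusted p = 1.07e-04), and its usage 2.70% ± 0.93 in UCMSC-Exos livers and 3.81% ± 3.91 in untreated HFD livers. Igkv5-39 rose by 1.75 ± 0.48 (edgeR adjusted p = 0.0172), with 2.80% ± 0.63 of usage in UCMSC-Exos livers and 5.31% ± 5.25 in untreated HFD livers. Igkv3-4 rose by 2.47 ± 0.65 (edgeR adjusted p = 0.014), with 2.48% ± 0.79 of usage in UCMSC-Exos livers and 2.63% ± 4.53 in untreated HFD livers. Of its 28 reads in the untreated group, 17 were in untreated HFD 1, and without that library it no longer passed the filter.

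The lambda chain, which has very few variable segments in the mouse, had the smallest ratio of group means. Iglv1 averaged 0.72 ± 0.232 CPM in UCMSC-Exos livers and 0.207 ± 0.158 CPM in untreated HFD livers, a log2 fold change of 1.77 ± 0.39 (edgeR adjusted p = 0.0051). Its ranges, 0.315 to 1.03 CPM and 0.029 to 0.479 CPM, overlapped. Iglv3 averaged 0.222 ± 0.17 and 0.0935 ± 0.0896 CPM, and Iglv2 0.0539 ± 0.0402 and 0.0802 ± 0.0669 CPM, in UCMSC-Exos and untreated HFD livers, and both had too few reads for the test. Lambda made up 3.72% to 5.18% of light chain reads per kilobase in UCMSC-Exos livers and 6.43% to 17.5% in untreated HFD livers, with no overlap. Iglv1 took 72.0% ± 13.8 of lambda usage in UCMSC-Exos livers and 49.4% ± 22.9 in untreated HFD livers. The lambda values rest on 18 to 42 Iglv reads per UCMSC-Exos library and 5 to 26 per untreated HFD library.

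Untreated livers had no common leader. Across the 9 untreated HFD libraries the heavy chain was led by Ighv1-50 in 4 (numbers 6, 7, 8 and 9), and by Ighv9-3, Ighv1-26, Ighv11-2, Ighv1-64 and Ighv1-81 in 1 each. Ighv1-50 had 15 to 26 reads in those 4 libraries, 2 in untreated HFD 1 and none in untreated HFD 2, 3, 4 and 5, against 0 to 9 reads in UCMSC-Exos libraries. Its usage was 0.351% ± 0.41 in UCMSC-Exos livers and 9.5% ± 10.9 in untreated HFD livers, the untreated spread being larger than the mean. Ighv1-81 was seen in more untreated libraries than those other leading segments, with reads in 8 of 9 libraries and 7.25% ± 5.40 of usage there, against 1.49% ± 0.82 and reads in 8 of 8 libraries in UCMSC-Exos livers. Ighv11-2, a segment known from B-1 cells that bind phosphatidylcholine, had 0 to 24 reads in UCMSC-Exos libraries, the most in number 7, and 0 to 9 reads in untreated HFD libraries.

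The kappa leaders of untreated livers were as scattered. Igkv1-110 led untreated HFD 6, 8 and 9 with 25.8%, 10.7% and 30.5% of usage, and had 29, 16 and 42 reads there. In the other 6 untreated libraries it had 0 to 13 reads, and in UCMSC-Exos libraries 3 to 13 reads, or 0.942% ± 0.35 of usage against 9.99% ± 10.9 in untreated HFD livers. The other 6 untreated libraries were led by Igkv3-4, Igkv5-39, Igkv12-89, Igkv6-32, Igkv8-19 and Igkv9-120, a different segment each. Igkv6-32 had 0 to 9 reads in UCMSC-Exos libraries and 0 to 16 in untreated HFD libraries. Ighv1-50, Igkv1-110 and Igkv6-32 were thus 3 of the 9 segments whose mean CPM was lower in UCMSC-Exos livers, and none of the 9 passed edgeR's test in the fit with no filter.

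**Figure D3:**
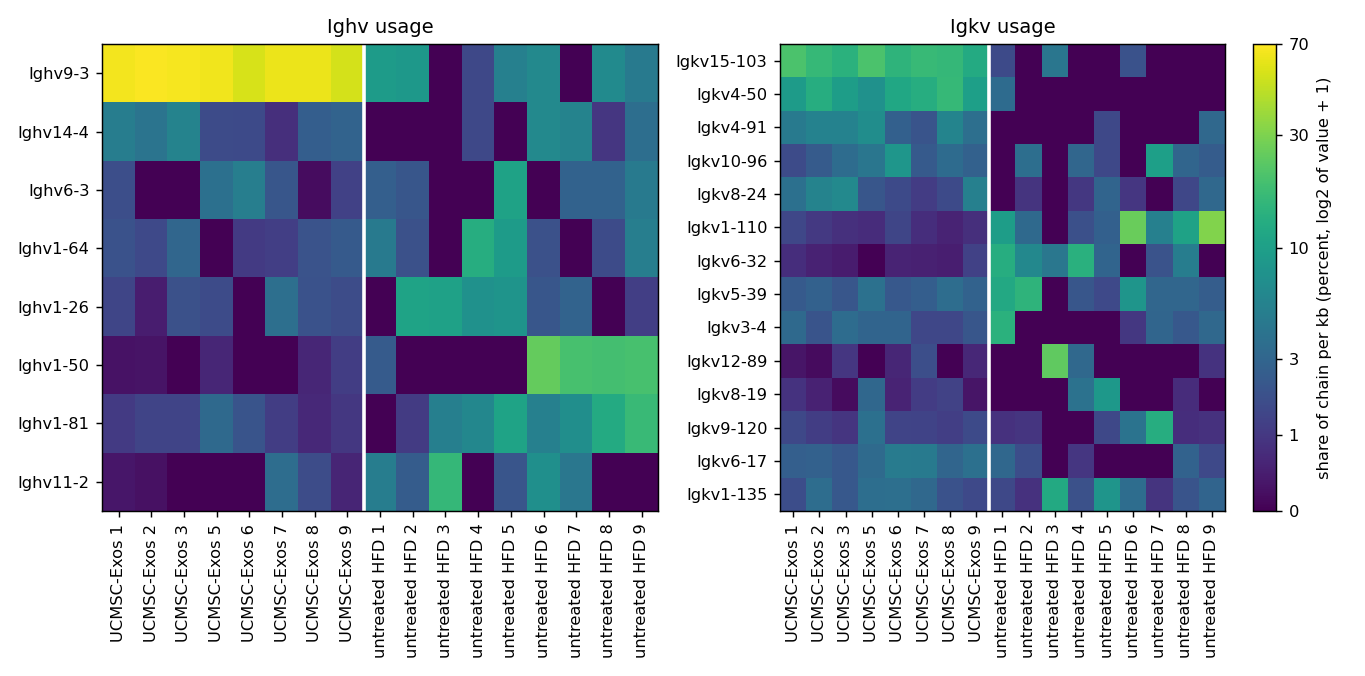
Usage of the named Ighv and Igkv segments (rows) in each library (columns, UCMSC-Exos left of the white line and untreated HFD right of it), as percent of the chain per kilobase on a log2 colour scale. Ighv9-3, Igkv15-103 and Igkv4-50 form bright rows over all 8 UCMSC-Exos libraries, while Ighv1-50 is bright in untreated HFD 6 to 9.

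By family, the heavy chain of UCMSC-Exos livers was mostly Ighv9 and that of untreated livers mostly Ighv1. The 3 Ighv9 segments took 63.1% ± 5.74 in UCMSC-Exos livers and 6.12% ± 4.19 in untreated HFD livers. The 31 Ighv1 segments, the largest heavy chain family here, took 19.3% ± 3.11 in UCMSC-Exos livers and 57.4% ± 12.6 in untreated HFD livers. With Ighv9-3 left out of the sum, Ighv1 took 50.8% ± 4.59 in UCMSC-Exos livers and 60.1% ± 12.3 in untreated HFD livers, so most of the family difference lay in that 1 segment. In the kappa chain, the 15 Igkv4 segments took 24.5% ± 2.58 in UCMSC-Exos livers and 12.0% ± 6.15 in untreated HFD livers, and the 4 Igkv1 segments 6.05% ± 1.80 and 20.2% ± 10.7. Leaving out Igkv15-103 and Igkv4-50 brought Igkv4 to 18.0% ± 3.32 in UCMSC-Exos livers and 11.7% ± 6.51 in untreated HFD livers.

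**Figure D4:**
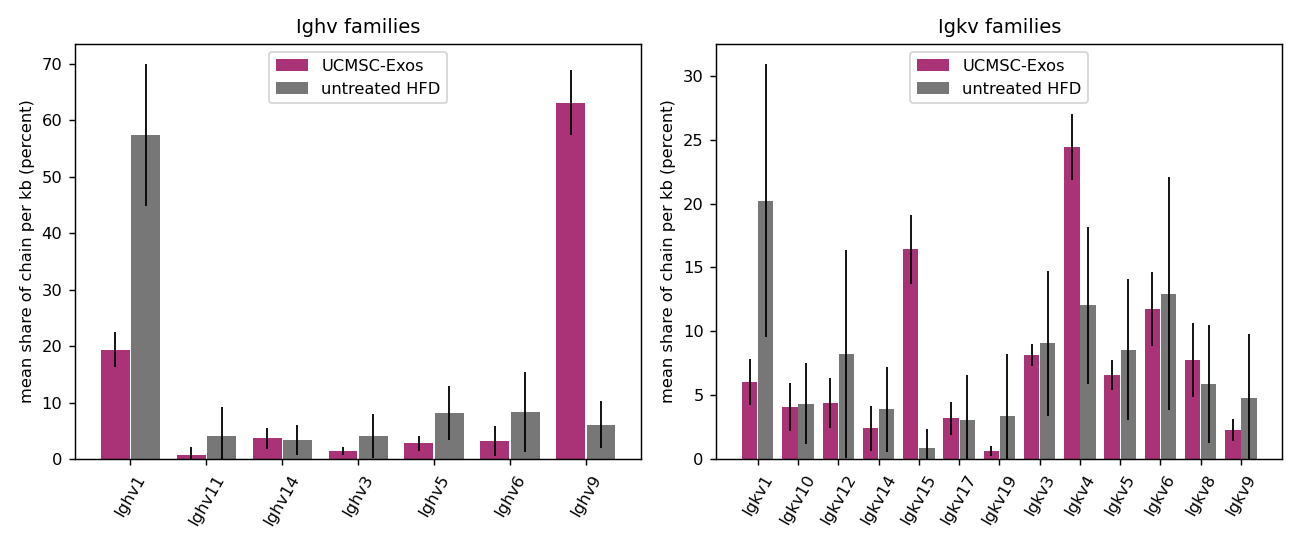
Mean share of each family in the chain's reads per kilobase, in percent, with SD over 8 UCMSC-Exos and 9 untreated HFD libraries (bars cut at 0), for families above 3% in either group. Ighv9 stands at 63.1% in UCMSC-Exos livers and Ighv1 at 57.4% in untreated HFD livers.

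Heavy chain usage was concentrated on fewer segments in UCMSC-Exos livers, and kappa usage was not. The effective number of Ighv segments (the exponential of the Shannon entropy, equal to the number of segments if all were used alike) was 5.18 to 10.2 in UCMSC-Exos livers and 12.2 to 22.9 in untreated HFD livers, with no overlap. For Igkv it was 23.3 to 33.3 in UCMSC-Exos livers and 10.4 to 27.5 in untreated HFD livers. The kappa values grow with depth, and at a common 45 reads the expected number of Igkv segments was 22.96 ± 1.14 in UCMSC-Exos livers and 20.03 ± 2.98 in untreated HFD livers. At a common 39 reads the heavy chain had 12.7 ± 1.56 segments in UCMSC-Exos livers and 18.0 ± 2.32 in untreated HFD livers. Once the leading segment of each library was set aside, the effective number of Ighv segments was 29.1 ± 4.29 in UCMSC-Exos livers and 18.1 ± 3.68 in untreated HFD livers, at unequal depth.

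Most of the 130 segments were seen in several mice. Reads were present in both groups for 116 of the 130 segments, and 14 had reads in UCMSC-Exos livers only, with 11 to 60 reads each. None of the 130 was seen in untreated livers only. After Ighv9-2, the one with most reads among the 14 was Ighv5-12, with 41 reads. Pooled in the same way and with the same limits, its level was 17.5 times that of 3 untreated reads. All 14 met the read limit through their UCMSC-Exos reads alone. All 8 UCMSC-Exos libraries held 36 of the segments (8 Ighv, 26 Igkv and 2 Iglv), and these 36 carried 75.5% of that group's reads. All 9 untreated HFD libraries held 4, and 3 were seen in all 17. None of the 130 was private to 1 library, and in 4 segments (Ighv12-3, Ighv1-7, Igkv4-80 and Igkv6-13) 1 library gave over 50% of the reads. Segments below the read limit, which could most easily be private, were not counted, so the limit itself bears on these results. The UCMSC-Exos libraries held 10022 of these reads and the untreated HFD libraries 1751, so a segment had more chances of being seen in a UCMSC-Exos liver.

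Usage was shared far more between UCMSC-Exos livers than between untreated ones. The overlap of 2 libraries is the sum, over segments, of the smaller of their shares, and is 100% when usage is the same. For Ighv it was 68.8% to 87.2% over the 28 UCMSC-Exos pairs, with a mean of 76.9%, against 18.3% to 55.1% and a mean of 34.7% over the 36 untreated pairs. Pairs made of 1 library from each group overlapped by 20.96% on average. For Igkv the overlap was 63.0% to 79.6% with a mean of 71.6% in UCMSC-Exos pairs, against 14.6% to 48.9% with a mean of 32.5% in untreated pairs, and 30.1% between groups. At this full and unequal depth, the lowest UCMSC-Exos pair lay above the highest untreated pair in both chains. Pairs share libraries and are not independent, so no test is given.

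Few reads lower an overlap even between like libraries, and the untreated libraries had fewer. Thinned to 39 reads per library, the mean Ighv overlap was 64.9% in UCMSC-Exos pairs, 30.4% in untreated pairs and 17.4% between groups. Thinned to 45 reads, the mean Igkv overlap was 47.8% in UCMSC-Exos pairs, 27.5% in untreated pairs and 22.8% between groups. The heavy chain sharing was mostly Ighv9-3: with that segment left out and 37 reads per library, the mean overlap was 34.9% in UCMSC-Exos pairs, 29.4% in untreated pairs and 27.3% between groups. The kappa sharing went further, since without Igkv15-103 and Igkv4-50 and at 43 reads it was 42.5% in UCMSC-Exos pairs, 28.5% in untreated pairs and 27.6% between groups. Without these leading segments the thinned ranges overlapped in both chains. UCMSC-Exos and untreated pairs ran from 26.7% to 44.8% and 17.1% to 46.5% for Ighv. For Igkv they ran from 38.3% to 49.3% and 15.1% to 42.4%.

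**Figure D5:**
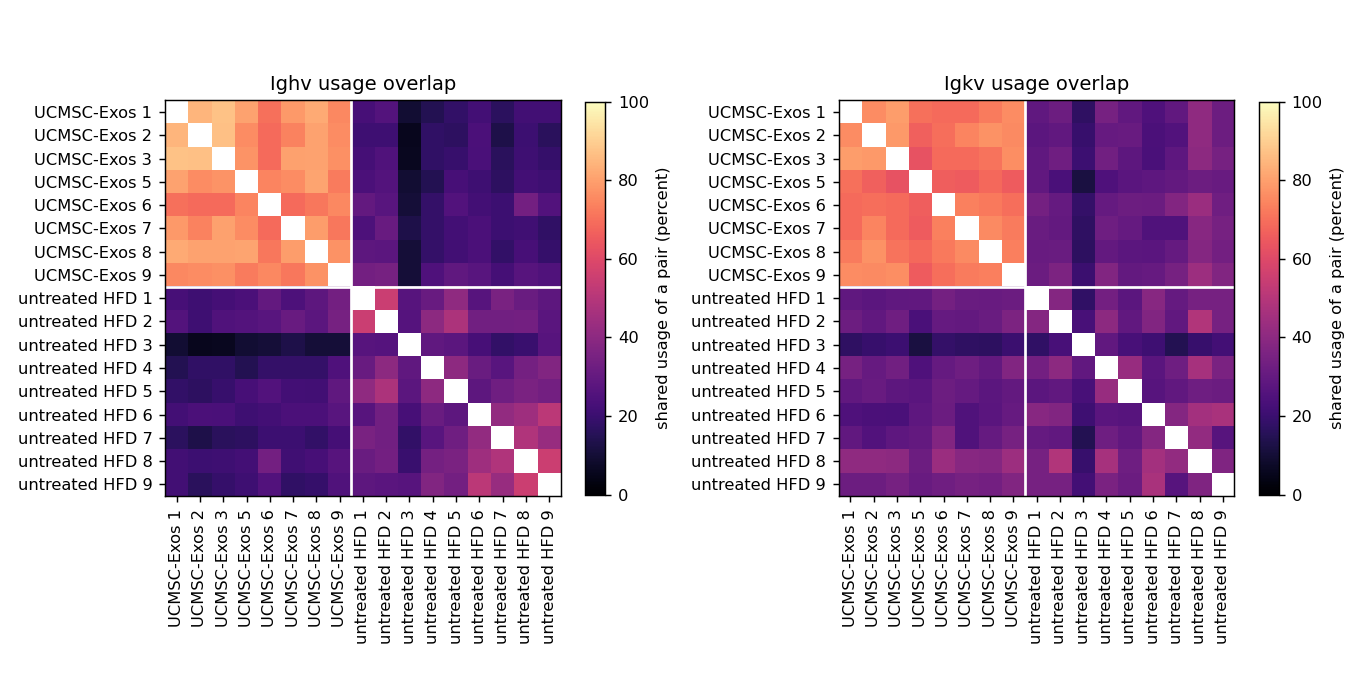
Overlap of usage between each pair of libraries, in percent, for Ighv (left) and Igkv (right), with white lines between UCMSC-Exos and untreated HFD libraries. At full, unequal depth, the UCMSC-Exos block lies at 68.8% to 87.2% for Ighv and 63.0% to 79.6% for Igkv, above all untreated pairs.

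Within the UCMSC-Exos group, the 3 pairs among libraries 1, 2 and 3 had the highest Ighv overlaps, 84.7% to 87.2%. That order did not hold throughout. With Ighv9-3 left out, at full depth, these pairs overlapped by 58.9% to 64.9%, and UCMSC-Exos 2 and 9 by 59.4%. In Igkv they overlapped by 76.0% to 79.6%, and UCMSC-Exos 2 and 8 by 77.2%. Ighv14-4, the second segment of those libraries, had 39, 30 and 37 reads there and 4 to 20 reads in the other 5 UCMSC-Exos libraries, against 0 to 6 reads in untreated HFD libraries. The kappa segment Igkv8-24 had 31, 46 and 51 reads in libraries 1, 2 and 3 and 38 in UCMSC-Exos 9, 6 to 11 in the other 4, and 0 to 4 in untreated HFD libraries. Igkv4-59, picked out after its values were seen, had 35, 38 and 29 reads in libraries 1, 2 and 3, 2 to 22 in the other 5 and 0 to 6 in untreated HFD libraries. In the same 3 libraries Ighg2c, the constant region of IgG2c, made up 47.8% to 53.5% of heavy chain constant reads per kilobase, against 14.3% to 29.4% in the other 5.

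Constant regions, the other end of the same mRNAs, were higher as well, in the fit that called 9.73% of all genes tested higher and 10.4% lower. Of the 13 constant regions and J chain genes listed, 10 were tested, 8 rose and 0 fell (0 lower at an unadjusted p under 0.05), among them Igha with a log2 fold change of 4.44 ± 0.24 (edgeR adjusted p = 3.84e-09). Ighm, the constant region of IgM, did not pass the test, at 0.40 ± 0.21 (edgeR adjusted p = 0.184). Igkv reads per kilobase came to 0.676 to 0.86 of Igkc reads per kilobase in UCMSC-Exos livers and 0.494 to 0.914 in untreated HFD livers, where Igkc is the only kappa constant region. Ighv reads per kilobase came to 0.819 to 1.15 of all heavy chain constant reads in UCMSC-Exos livers, against 0.449 to 0.632 in untreated HFD livers, with no overlap. Igha held 26.3% to 43.2% of heavy chain constant reads per kilobase in UCMSC-Exos livers and 3.83% to 20.9% in untreated HFD livers, and Ighm 7.74% to 46.6% and 59.8% to 78.6%.

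Genes that mark the B lineage were called in both directions, in a fit that called 20.2% of all genes. Of 11 B-cell identity genes tested, 1 rose (Fcer2a, the low-affinity IgE receptor, at 1.12 ± 0.39, edgeR adjusted p = 0.0494) and 1 fell (Cd74, the invariant chain of antigen presentation, which other cells also express, by 0.88 ± 0.22 in log2 units, edgeR adjusted p = 0.01). Of the 12 plasma-cell genes 10 were tested, 2 rose and 2 fell. Pou2af1, a transcriptional coactivator of B cells, rose by 1.47 ± 0.28 (edgeR adjusted p = 0.0018), and Slamf7, also found on other immune cells, fell by 0.95 ± 0.23 (edgeR adjusted p = 0.009). Of 12 genes of V(D)J recombination and hypermutation 6 were tested, none rose (0 at an unadjusted p under 0.05) and 1 fell (Dntt, by 0.81 ± 0.26 in log2 units, edgeR adjusted p = 0.0343), and Rag1, Rag2 and Vpreb2 had no read in any library.

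Transcripts of other cells differed between the groups as well, in the fit that called 9.73% of all genes tested higher and 10.4% lower. The 9 T-cell markers summed to 18.5 to 49.7 CPM in UCMSC-Exos livers, highest in UCMSC-Exos 9, and to 15.2 to 25.9 CPM in untreated HFD livers. Of those 9, 3 rose and 0 fell (0 lower at an unadjusted p under 0.05), led by Cd4 at 1.62 ± 0.22 (edgeR adjusted p = 7.39e-05). Of the 6 markers of lymph node and spleen stroma, the B-cell chemokine Cxcl13 alone was tested and rose by 2.03 ± 0.42 (edgeR adjusted p = 0.003), while Glycam1 and Ccl21a had no read in any library. In UCMSC-Exos 9 Cxcl13 stood at 0.094 CPM, below the 0.307 to 0.92 CPM of untreated HFD livers. The other UCMSC-Exos livers had 1.61 to 3.82 CPM. The 7 erythroid and blood genes found summed to 141 to 346 CPM in UCMSC-Exos livers and 71.5 to 199.5 CPM in untreated HFD livers, with 3 of 5 tested genes higher by edgeR's test. The part of these cells in the segment reads was not tested.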

How the data were processed

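Liver RNA of 17 mice was analysed from a table of whole-number read counts per gene that the authors deposited. Per the file headers, featureCounts 2.1.1 counted both mates of read pairs over exons of GENCODE vM25, with no strand option and no multi-mapping reads, so near-identical segments lose the reads they share. The submitters' processing notes name fastp 1.3.3, HISAT2 2.2.1 and Subread 2.0.2 on mm10, and the counter's version differs between these sources. Symbols matched 55141 of 55401 gene IDs, and 213 genes sharing a symbol stayed under their ID. Library names in the labels gave each column its sample. A column for 1 further sample had no match and was left out. The labels give no cage or batch, and p-values measure the spread between these mice.

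In R 4.3.3, edgeR 4.0.16 (filterByExpr with minimum count 10, TMM, robust quasi-likelihood F test, two-sided, Benjamini-Hochberg over all genes, threshold 0.05) compared UCMSC-Exos with untreated HFD. The SE of a log2 fold change was back-calculated as its absolute value over the square root of the F statistic. CPM used the effective library size. Usage, overlap, expected segments at equal reads, and thinning (mean of 20 draws) have no test. Other settings were RLE or upper quartile scaling, no filter, 1 CPM in 8 libraries, the replicate number as a block, DESeq2 1.42.0, limma 3.58.1 voom with quality weights, 3 surrogate variables from sva 3.50.0, each library left out, untreated HFD 3 and 9 left out, a limit of 30 reads, and usage per read, by family or thinned. Leaving out the leading segments was added after seeing the data. The steps were tested on simulated data. The closest libraries, UCMSC-Exos 2 and 3, differed by 3.89 times the sampling noise of independent reads.

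The segments and gene lists were chosen with earlier results of these data known. Named are the 5 segments with the largest mean usage in UCMSC-Exos livers and the 3 in untreated HFD livers for Ighv and for Igkv, all Iglv, those leading a library, up to 10 called per direction, and those beside the read limit. Ighv9-2, Ighv5-12, Igkv4-59 and the 4 segments with most reads in 1 library were named after their values were seen. Other lists gave up to 2 genes of smallest p. The fit called 9.73% of all genes tested higher and 10.4% lower. Lists not described further had, by edgeR, 0 of 3 tested genes called (intestinal epithelium), 0 higher and 1 lower of 2 (adipose tissue), 0 of 4 (IgA handling), 0 of 1 (pancreatic acinar), 0 higher and 1 lower of 1 (skeletal muscle) and 7 of 7 higher (hepatocyte).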

Additional observations from a re-analysis of the deposited data

Results flagged for a closer look

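In 74 groups of values examined (named segments, and for each chain the level, the effective number and the leading share), 3 values lay far from the rest of their group, all in untreated HFD livers. Chance alone flags about 1 in 20 groups. Igkv4-50 stood at 0.113 CPM in untreated HFD 1 (4 reads), with no read in the other 8 untreated libraries. Igkv4-91 stood at 0.111 CPM in untreated HFD 9 (4 reads), with at most 1 read in the others. Igkv3-4 stood at 0.482 CPM in untreated HFD 1 (17 reads), with at most 4 reads in the others. All 3 segments rose in UCMSC-Exos livers in edgeR's test.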

How the results depend on the processing

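The count of segments that rose was 10, and 9 to 11 when each library was left out in turn. It was 44 with no filter and 2 with a filter of 1 CPM in 8 libraries, where 130 and 2 segments were tested, and 10 or 12 under the remaining settings. No segment fell under any of the 26 settings. The 10 segments called in edgeR's filtered fit kept their direction and call under every setting in which they were tested. The replicate number as a block gave 10 segments, and 3027 genes in all against 3274. Same-numbered libraries correlated at -0.21 to 0.326, with 2 of 8 pairs above 0.1. Differently numbered pairs were not compared, so whether the numbers pair the mice was not settled. Over all genes the count was 1549 with surrogate variables, 7711 with voom and 2005 to 5823 when each library was left out.

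The log2 ratio of the summed level was 2.80 to 2.98 when each library was left out and 2.12 without Ighv9-3, Igkv15-103 and Igkv4-50. The mean Ighv overlap within UCMSC-Exos (76.9%) was 75.9% to 78.8% when each library was left out, 81.7% with segments of 30 or more reads, 87.7% by family, 64.9% thinned and 48.8% without Ighv9-3. The mean Igkv overlap (71.6%) was 70.8% to 73.3%, and 85.7% by family, 47.8% thinned and 65.1% without Igkv15-103 and Igkv4-50. Thinning leaves fewer reads per library and families fewer classes. Family sums, thinning and usage per read do not enter the summed level and were not run for it. With 39 to 138 Ighv or Igkv reads per untreated library, a segment under a few percent of usage there could not be told from absent. Iglv reads were fewer, at 5 to 26 per untreated library.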
